A study of Homo sapiens with 66 samples.

Results

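HIF-1β (ARNT) peaks that had no HIF-α peak beside them were examined in HKC8 cells, a human renal tubular epithelial line. Of 5088 sites called in both HIF-1β libraries of wild-type (WT) HKC8 cells, 506 overlapped no peak in any of the 4 WT HIF-α libraries, which is 9.94% of the sites (95% Clopper-Pearson interval 9.14 to 10.8%). They are called β-only sites here, and the other 4582 are called α/β sites. The members were selected on the presence and absence of peak calls in these 6 WT libraries, so β-only describes calls and not occupancy: a peak list holds nothing below the caller's limit, and a site absent from a list can lie just under it. All 6 libraries came from cells kept in 0.5% oxygen for 16 h.

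The series mapped HIF-1α (antibody PM14), HIF-2α (PM9) and HIF-1β (Novus NB100-110) by chromatin immunoprecipitation and sequencing (ChIP-seq), and supplied 50 peak lists of 237 to 8279 peaks in groups of 2. Beside the WT libraries, the same experiment held HKC8 cells in which HIF-1α (1aKO) or HIF-2α (2aKO) had been disrupted with a CRISPR-Cas9 nickase, also at 0.5% oxygen for 16 h, each with HIF-1β and the remaining HIF-α isoform. The study describes the knockout lines as single clones. It reported slightly less HIF-1α protein in 2aKO cells, which it proposes may be clonal. Differences between the knockouts cannot be told apart from differences between clones. A separate HKC8 experiment covered 0.5% oxygen for 6, 16 and 48 h and 3% oxygen for 6 h with all 3 antibodies. The remaining lines were RCC4, a VHL-deficient renal cancer line kept in normoxia, and HepG2, a hepatocellular cancer line kept in 0.5% oxygen for 16 h. Peak lists hold no expression values, so neither cell identity nor loss of the disrupted isoform could be checked from them. The lists hold no read depth either. The WT HIF-1β lists were the longest among the HIF-1β lists (6199 and 8279 peaks), and the 8 HIF-1β lists of the separate HKC8 experiment held 626 to 1793 peaks. Shares of sites called below tended to be higher in longer lists but did not follow length throughout. A 2aKO HIF-1β list of 2550 peaks called 31.4% of β-only sites, and a 1aKO list of 3387 peaks called 15.02%. The HepG2 HIF-α libraries did not group by their antibody labels: pairs across antibodies shared 21.4 to 43.1% of the peaks of both lists, the most being HIF-1α replicate 2 with HIF-2α replicate 1, and replicates of an antibody shared 23.4% and 24.05%. In RCC4 these values were 20.4 to 34.1% across antibodies and 23.1% and 33.3% within. Sites with and without a HIF-α peak in HepG2 were set by all 4 of these libraries and do not depend on the labels, whereas comparisons of HIF-1α with HIF-2α are given with and without HepG2. Nothing states that replicates were separate cultures beyond being independent experiments, so p-values measure the spread between libraries only.

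HIF-1β is a bHLH-PAS protein that is present whatever the oxygen level. It dimerises with HIF-1α or HIF-2α, which are stabilised in hypoxia, and the dimer reads the hypoxia response element (HRE), whose core is ACGTG or GCGTG. The same subunit pairs with the aryl hydrocarbon receptor (AHR), whose dimer reads the longer TNGCGTG, with SIM and NPAS family proteins, and with itself on the E-box CACGTG. AP-1 (FOS/JUN dimers, TGACTCA) is a frequent neighbour of distal enhancers. A HIF-1β peak alone does not tell these partners apart. From read signal in hypoxic HKC8 cells, the study reported HIF-α above background at every HIF-1β site. It added that no stimulus had been given to these cells to induce other partners, AHR among them. It also mentions evidence of HIF-1β without HIF-α under other conditions. Read signal at the β-only sites was not tested here.

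The central 200 bp of 6 β-only sites are shown because they span what the members hold: the best scores, wide recurrence, AHR-type letters and promoters. Sequences are the GRCh37 plus strand, 5′ to 3′, and capitals mark HRE cores, E-boxes and AP-1 motifs on either strand, so CACGC is GCGTG read from the minus strand. The first set of lines gives the strongest sites, named by the nearest protein-coding transcription start site (TSS). Neither holds an HRE core, an E-box or an AP-1 motif.
NUDT12 site, chr5:102764018-102764217: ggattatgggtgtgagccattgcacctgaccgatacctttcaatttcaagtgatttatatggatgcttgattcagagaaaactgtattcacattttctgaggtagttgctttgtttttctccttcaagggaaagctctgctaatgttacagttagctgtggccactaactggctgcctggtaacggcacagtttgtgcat
SOX9 site, chr17:70403739-70403938: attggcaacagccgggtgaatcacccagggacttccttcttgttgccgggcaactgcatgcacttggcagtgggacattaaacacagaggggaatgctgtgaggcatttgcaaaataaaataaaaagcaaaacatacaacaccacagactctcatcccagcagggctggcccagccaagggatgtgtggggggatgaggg
The next line gives a site with HIF-1β calls in many libraries outside the WT set, an intergenic window near STX11. It holds an E-box and 5 HRE cores, the E-box counting as a core on each strand.
STX11 site, chr6:144537016-144537215: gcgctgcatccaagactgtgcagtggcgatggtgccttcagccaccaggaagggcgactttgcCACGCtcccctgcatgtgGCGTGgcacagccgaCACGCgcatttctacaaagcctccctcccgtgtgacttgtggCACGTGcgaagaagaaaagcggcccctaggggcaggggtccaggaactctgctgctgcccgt
The following window carries the AHR-type TNGCGTG and no ACGTG.
ETAA1 site, chr2:67691093-67691292: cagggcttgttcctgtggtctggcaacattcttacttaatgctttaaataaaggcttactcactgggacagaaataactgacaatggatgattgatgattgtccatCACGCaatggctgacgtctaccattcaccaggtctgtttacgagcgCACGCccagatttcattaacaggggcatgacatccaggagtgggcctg
The last lines are the best-ranked sites within 1 kb of a TSS, at PSMC4, a proteasome ATPase gene, and EIF4H, a translation initiation factor gene.
PSMC4 site, chr19:40476782-40476981: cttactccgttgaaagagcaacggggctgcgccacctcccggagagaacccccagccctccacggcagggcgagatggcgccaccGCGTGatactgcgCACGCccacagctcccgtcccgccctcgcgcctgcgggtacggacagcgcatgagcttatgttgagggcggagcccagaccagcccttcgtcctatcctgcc
EIF4H site, chr7:73589377-73589576: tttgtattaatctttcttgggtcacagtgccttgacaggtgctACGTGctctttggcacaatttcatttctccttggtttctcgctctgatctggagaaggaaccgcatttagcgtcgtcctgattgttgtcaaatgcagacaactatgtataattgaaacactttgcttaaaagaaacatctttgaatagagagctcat

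β-only sites were weak within the WT lists that chose them. Peaks carry a MACS score that rises as the peak's p-value falls and starts at 50. Median scores at β-only sites were 73.7 in replicate 1 and 88.7 in replicate 2, against 152.8 and 246.4 at α/β sites. Ranked within each list so that 0% is the strongest peak, the median mean rank was 68.4% at β-only and 35.5% at α/β sites. The rank followed the number of HIF-α libraries with a peak: medians were 58.3%, 39.4%, 21.3% and 7.17% at sites with 1, 2, 3 and 4 of them (1082, 2034, 607 and 859 sites). Split by rank into 4 score groups of 1272 sites, group 1 (the strongest) held 2 β-only sites (0.157%), group 2 held 24 (1.89%), group 3 held 125 (9.83%) and group 4 held 355 (27.9%).

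**Figure D1:**
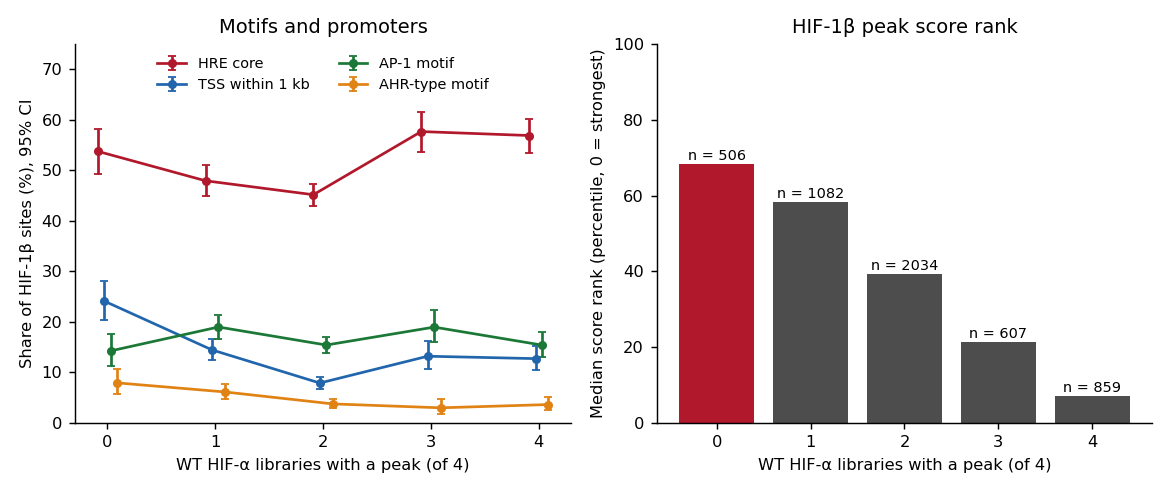
HIF-1β sites of WT HKC8 by the number of WT HIF-α libraries with an overlapping peak, with 0 being the 506 β-only sites. Left, share of sites (%) with each motif in the central 200 bp or a protein-coding TSS within 1 kb, bars being 95% Clopper-Pearson intervals. Right, median score rank (percentile, 0 strongest), which runs from 68.4% at 0 libraries to 7.17% at 4.

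The selection boundary was wide in distance. The nearest WT HIF-α peak was a median of 74.7 kb away, 213 β-only sites (42.1%) had none within 100 kb, and 21 (4.15%) had one within 1 kb, the closest at 30 bp. On the other side of the boundary, α/β sites overlapped their HIF-α peak by a median of 1122 bp, the least by 3 bp, and 1 of them by less than 100 bp. The 21 β-only sites just outside a HIF-α peak had a median rank of 81.8%. One library set the size of the class: without WT HIF-2α replicate 2, whose 6749 peaks made the longest WT HIF-α list, 1317 sites (25.9%) had no HIF-α call. Leaving out WT HIF-1α replicate 1, WT HIF-1α replicate 2 or WT HIF-2α replicate 1 gave 663, 537 and 589.

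β-only sites lay nearer to promoters than α/β sites in the WT data. The rule drew on uneven lists, of 1913 and 1535 peaks for WT HIF-1α and 4537 and 6749 for WT HIF-2α. The study reports HIF-1 binding nearer to promoters than HIF-2. What the uneven lists add to the promoter share of β-only sites was not tested. A protein-coding TSS was within 1 kb of 122 of 506 (24.1%, interval 20.4 to 28.1%) and of 505 of 4579 α/β sites on the standard chromosomes (11.03%, 10.1 to 11.97%). Without replicate 2 of each antibody the shares were 13.9% and 11.2%. The median distance was 13.01 kb against 26.1 kb. By annotation 220 centres were intergenic, 234 in an intron, 42 in a UTR and 10 in a coding exon. Among sites with 1, 2, 3 and 4 HIF-α libraries the promoter-proximal share was 14.4%, 7.87%, 13.2% and 12.7%. In the 8 other conditions, where the same rule was applied anew to each condition's own lists, the direction was not the same: the promoter-proximal share of sites without a HIF-α peak minus that of sites with one was positive in RCC4 (5 of 8 sites against 188 of 441) and HepG2 (24 of 51 against 973 of 2105) and negative in the other 6. The mean difference was -5.23 percentage points (exact sign-flip permutation test over 8 conditions, two-sided p = 0.266, adjusted p = 0.417 by Benjamini-Hochberg over 8 tests). Without replicate 2 it was -19.3 (exact p = 0.00781, adjusted p = 0.0312).

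An HRE core was found in the central 200 bp of 272 β-only sites (53.8%, 49.3 to 58.2%) and of 2274 α/β sites (49.7%, 48.2 to 51.1%). Without replicate 2 of each antibody the order turned, with 52.2% and 54.7%. In windows of the same size 2 kb to either side the share at β-only sites was 22.04% of 1012, and in 78564 windows centred on protein-coding TSSs it was 40.9%. Over the whole site, whose median width was 1170 bp at β-only and 1327 bp at α/β sites, 89.5% and 91.0% held a core. The 2 forms of the core differed between the classes in opposite directions. ACGTG was in 29.8% of β-only (25.9 to 34.04%) and 34.2% of α/β windows (32.8 to 35.6%), and these intervals overlap. GCGTG was in 35.97% (31.8 to 40.3%) and 23.4% (22.1 to 24.6%). In TSS windows the shares were 15.8% for ACGTG and 30.9% for GCGTG. The 2 forms were not tested apart in the other conditions. Near promoters GCGTG was in 70 of 122 β-only windows (57.4%, 48.1 to 66.3%) and 193 of 505 α/β windows (38.2%, 33.96 to 42.6%), and in distal windows it was in 112 of 384 (29.2%, 24.7 to 33.99%) and 877 of 4074 (21.5%, 20.3 to 22.8%). The core contains CpG, and base composition moved with the class: the ratio of observed to expected CpG in the window had a median of 0.334 at β-only and 0.274 at α/β sites. Its part in these shares was not tested.

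**Figure D2:**
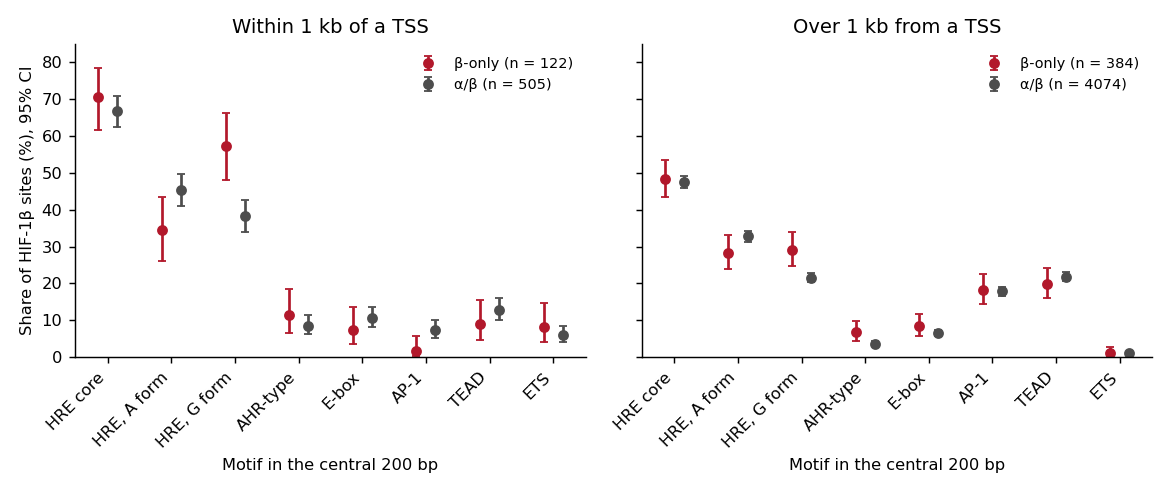
Share of WT HIF-1β sites (%) holding each motif in the central 200 bp, for sites within 1 kb of a TSS (left, 122 β-only and 505 α/β) and farther away (right, 384 and 4074), with 95% Clopper-Pearson intervals. A form is ACGTG and G form is GCGTG. The G form stands at 57.4% against 38.2% near promoters and at 29.2% against 21.5% in distal windows, while AP-1 stands at 18.2% and 17.9% in distal windows.

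TNGCGTG, the AHR-type motif, contains GCGTG and overlaps the HRE count. It was in 40 β-only windows (7.91%, 5.71 to 10.6%), in 191 α/β windows (4.17%, 3.61 to 4.79%), in 3.06% of the β-only flanks and in 4.22% of TSS windows. The share was 6.11%, 3.74%, 2.97% and 3.61% at sites with 1, 2, 3 and 4 HIF-α libraries. E-boxes, which contain ACGTG, were in 41 β-only windows (8.10%) and 322 α/β windows (7.03%), against 1.48% of β-only flanks. AP-1 motifs were in 72 β-only windows (14.2%, 11.3 to 17.6%) and 765 α/β windows (16.7%, 15.6 to 17.8%), against 3.56% of β-only flanks. Without replicate 2 these shares were 18.9% and 17.3%, in the other order. Of the 72, 70 were distal, where the shares were 18.2% and 17.9%. Near promoters AP-1 was in 2 of 122 β-only and 37 of 505 α/β windows. Neither an HRE core nor an AP-1 motif was in 200 β-only windows (39.5%), and 38 held both (7.51%).

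The motif contrasts were tested in the 8 conditions that had not chosen the members, each with its own sites with and without a HIF-α peak. HRE cores were less frequent at the sites without HIF-α in 8 of 8 conditions, with differences from -22.2 percentage points (0.5% oxygen, 6 h: 99 of 153 against 253 of 291) to -3.68 (HepG2: 35 of 51 against 1522 of 2105). The mean was -13.1 percentage points (exact sign-flip permutation test, two-sided p = 0.00781, the smallest that 8 conditions allow, adjusted p = 0.0625). Without replicate 1 or without replicate 2 it was -24.7 and -29.3 (exact, adjusted p = 0.0625 in both). The WT description above has the opposite direction with both replicates and the same direction without replicate 2. AP-1 motifs were less frequent in 7 of 8 conditions, 2aKO being the exception, with a mean of -6.99 percentage points (exact p = 0.0234, adjusted p = 0.0625), and -4.32 without replicate 2 (exact, adjusted p = 0.0833). AHR-type motifs were more frequent in 7 of 8, RCC4 being the exception with 0 of 8 sites, and the mean was 2.58 percentage points (exact p = 0.164, adjusted p = 0.328). It was 0.98 without replicate 1 and turned to -0.13 without replicate 2. A fit without RCC4, added after the data were seen, gave an AHR-type difference of 3.98 percentage points (exact p = 0.0156, adjusted p = 0.0417). RCC4 was the only condition of the other sign, so the shared sign of the other 7 followed from leaving it out. The E-box difference was -0.49 percentage points (exact p = 0.938, adjusted p = 0.938). It was negative in 7 conditions and 27.1 in RCC4, where 3 of 8 sites held one. Without RCC4, again left out after the data were seen and again the only condition of the other sign, it was -4.43 (exact p = 0.0156, adjusted p = 0.0417). Without replicate 2 it was -5.05 (exact p = 0.00781, adjusted p = 0.0312). Conditions of HKC8 share sites and are not fully independent of each other.

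Each knockout library called HIF-1β again at under 32% of β-only sites, and at least 1 of the 4 did so at 273 (54.0%, beside 79.9% of all sites). In 1aKO cells the share was 15.02% in replicate 1 and 30.6% in replicate 2, and in 2aKO cells it was 31.4% and 19.96%. Over all sites these shares were 50.04% and 66.02% in 1aKO and 40.8% and 33.1% in 2aKO, which do not overlap. The 4 β-only values interleave. Their 2 means of 22.8% ± 11.04 and 25.7% ± 8.11 (SD, n = 2) differed by -2.87 percentage points (exact permutation test, two-sided p = 0.667, adjusted p = 0.762, with 0.333 the smallest p that 2 against 2 allows). So 1aKO called more of all sites than 2aKO in both replicates, and this order was not seen at β-only sites. Both replicates called HIF-1β at 66 β-only sites (13.04%) in 1aKO, beside 47.3% of all 5088 sites, and at 78 (15.4%) in 2aKO, beside 27.1% of all sites. None of the 4 knockout libraries called it at 233 (46.0%, against 17.2% of α/β sites and 20.1% of all sites).

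The knockouts were also compared at promoters and elsewhere. At the 122 promoter-proximal sites the 1aKO shares were 2.46% and 20.5% and the 2aKO shares 58.2% and 42.6%, which do not overlap (difference -38.9 percentage points, exact p = 0.333, adjusted p = 0.381). At the 384 distal sites they were 19.01% and 33.9% in 1aKO and 22.9% and 12.8% in 2aKO, which interleave (difference 8.59, exact p = 0.667, adjusted p = 0.762). The promoter order also held at α/β sites near promoters, with 36.04% and 52.9% in 1aKO and 75.05% and 63.2% in 2aKO. Distal α/β sites gave 56.1% and 72.04% in 1aKO and 37.7% and 31.03% in 2aKO. These do not overlap, unlike the distal β-only shares. Both replicates of 2aKO but not of 1aKO called 63 β-only sites (12.5%, beside 9.39% of all sites), of which 42 were within 1 kb of a TSS (66.7%), 44 held an HRE core and 2 an AP-1 motif. Of the 415 α/β sites called in this way 49.2% were within 1 kb of a TSS. Both replicates of 1aKO but not of 2aKO called 51 (10.1%, beside 29.7% of all sites), of which 1 was within 1 kb of a TSS, 28 held an HRE core and 10 an AP-1 motif (19.6%), and of 1457 such α/β sites 4.74% were within 1 kb of a TSS and 18.2% held an AP-1 motif.

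Both replicates of both knockouts called 15 β-only sites (2.96%, beside 17.7% of all sites). Of these, 5 held an HRE core (33.3%, interval 11.8 to 61.6%) and 0 held ACGTG, an E-box or AP-1 (interval up to 21.8% for each), whereas of 884 α/β sites called in the same 4 libraries 53.2% held an HRE core and 37.4% ACGTG. The 15 sites ranked higher than the class, with a median of 35.6%, and 6 of the 10 highest-scoring β-only sites were among them.

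Across the 16 HIF-1β libraries outside the WT set, β-only sites were called less often than α/β sites in 14. The exceptions were both HepG2 libraries. In the separate HKC8 experiment the β-only shares ran from 0.988% (0.5% oxygen, 48 h, replicate 2) to 9.88% (0.5% oxygen, 16 h, replicate 2), beside α/β shares of 4.65% and 20.1% in these libraries. RCC4 gave 4.15% and 4.74% against 9.76% and 8.90%. HepG2 gave 24.9% and 17.4% against 19.6% and 14.9%. Averaged within conditions, β-only minus α/β was -9.56 percentage points and negative in 7 of 8 conditions (exact sign-flip permutation test, two-sided p = 0.0156, adjusted p = 0.0625). Both replicates called 30 β-only sites at 0.5% oxygen for 16 h in the separate experiment (5.93%, beside 11.4% of all sites), 11 in RCC4 (2.174%, beside 6.13%) and 83 in HepG2 (16.4%, beside 14.2%). None of the 16 libraries called 190 β-only sites (37.5%, beside 17.2% of all sites).

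**Figure D3:**
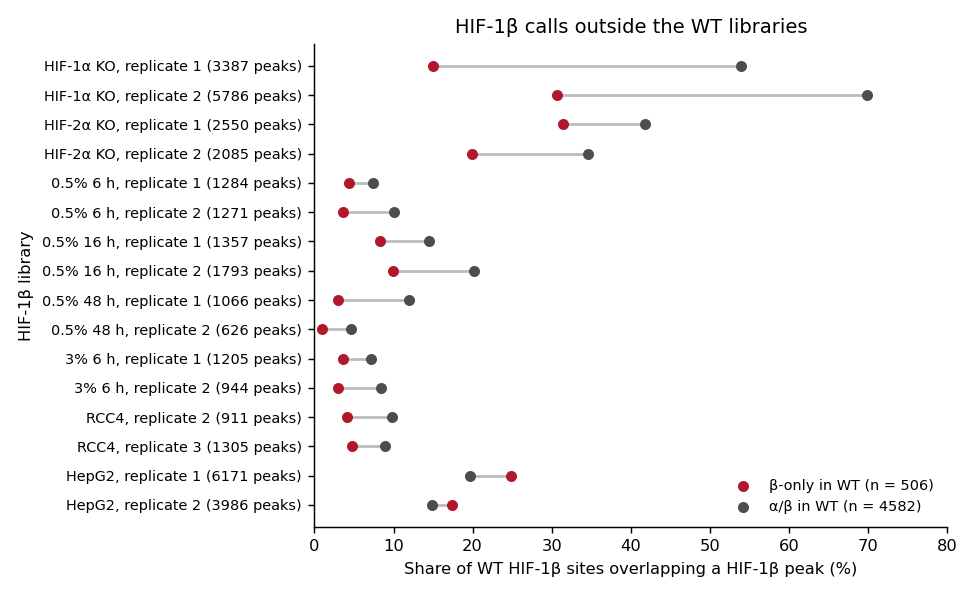
Share of WT HIF-1β sites (%) overlapping a HIF-1β peak in each of 16 libraries that did not choose the members, red for the 506 β-only sites and grey for the 4582 α/β sites, with the number of peaks in each list. Red lies to the left of grey in 14 libraries and to its right in both HepG2 libraries.

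Comparing sites of like score turned the mean difference round in 6 of 8 conditions. Within score groups 2 to 4, the average β-only minus α/β difference was positive in 7 of 8 conditions. It was 23.4 percentage points ± 8.66 (SD, n = 2) in 2aKO, 16.9 ± 2.97 in HepG2, 8.38 ± 2.31 at 0.5% oxygen for 16 h, 5.50 ± 1.52 in RCC4, and between 1.23 and 3.84 in the other HKC8 conditions. At 48 h the replicates lay on either side of 0 (2.85 and -0.386). In 1aKO the difference stayed negative at -16.2 ± 1.10. The mean over conditions was 5.75 percentage points (exact p = 0.203, adjusted p = 0.406), and 11.1 with score group 1, which holds 2 β-only sites, included (exact p = 0.0625, adjusted p = 0.167). In score group 2, 2aKO called HIF-1β at 95.8% and 66.7% of 24 β-only sites against 42.3% and 31.2% of 1248 α/β sites, while 1aKO called it at 45.8% and 75% against 58.1% and 74.5%.

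**Figure D4:**
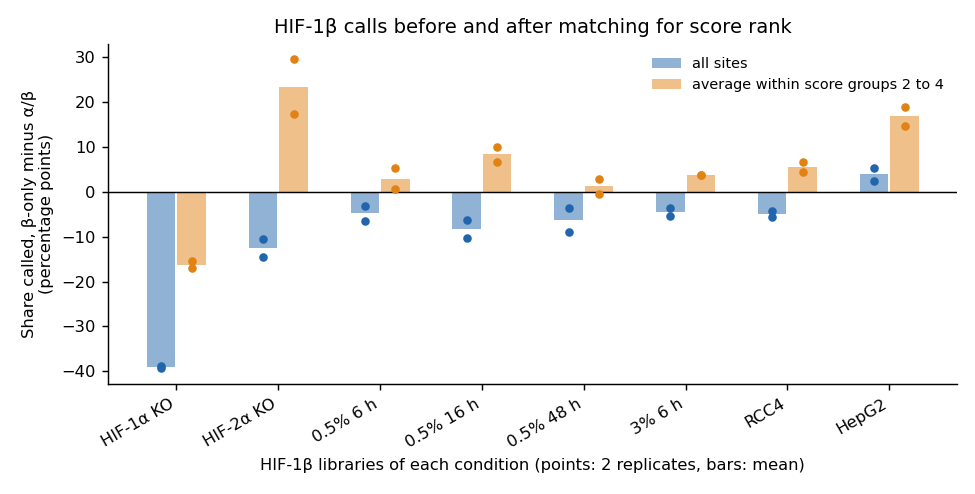
Share of β-only sites minus share of α/β sites with a HIF-1β call (percentage points) in 8 conditions, over all sites (blue) and averaged within score groups 2 to 4 of the WT rank (orange). Points are the 2 replicates and bars their mean. The blue mean is above 0 in HepG2 alone, and the orange mean is below 0 in HIF-1α KO (1aKO) alone.

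HIF-1β was called in an RCC4 or HepG2 library at 142 β-only sites (28.1%, beside 25.9% of all sites), a share near that of all sites. Promoters made up most of the 142: 95 (66.9%) were within 1 kb of a TSS, 106 (74.6%) held an HRE core and 8 (5.63%) an AP-1 motif. Among 1176 α/β sites called in these lines 30.9% were within 1 kb of a TSS, 60.7% held an HRE core and 14.6% an AP-1 motif. Of the 364 β-only sites not called in either line, 27 (7.42%) were within 1 kb of a TSS, 166 (45.6%) held an HRE core and 64 (17.6%) an AP-1 motif. HepG2 called 74.6% and 50% of the 122 promoter-proximal β-only sites, beside 65.9% and 59.2% of promoter-proximal α/β sites. In RCC4 these shares were 9.02% and 11.5% beside 30.1% and 28.9%. Distal β-only sites were called in HepG2 at 9.11% and 7.03%, beside 13.9% and 9.38% of distal α/β sites.

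HIF-α peaks were called at part of these sites in other HKC8 libraries, and less often than over all sites. At least 1 of the 20 other HKC8 HIF-α libraries had a peak at 237 β-only sites (46.8%, beside 80.3% of all sites), and 2 or more at 127 (25.1%, beside 65.5%). HIF-2α in 1aKO cells was called at 23.1% and 28.3% of β-only sites, beside 63.5% and 69.7% of all sites. Both replicates called it at 81 (16.0%, beside 59.3% of all sites). HIF-1α in 2aKO cells was called at 11.3% and 8.50%, beside 21.1% and 13.9% of all sites, and in both replicates at 23 (4.55%, beside 12.3% of all sites). The 16 HIF-α libraries of the separate HKC8 experiment gave 0 to 4.94%, beside 0.708 to 13.3% of all sites. Adding RCC4 and HepG2, 319 sites (63.0%) had a HIF-α peak in 1 or more of 28 libraries, beside 85.2% of all sites, and 187 had none.

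In RCC4 and HepG2 the share of β-only sites with a HIF-α peak differed strongly between replicates of an antibody, and the share of all sites differed too. RCC4 HIF-1α gave 31.2% and 5.14% from lists of 5680 and 2120 peaks, beside 31.2% and 11.7% of all sites. RCC4 HIF-2α gave 9.88% and 2.77% from lists of 4317 and 2990, beside 28.4% and 16.1%. HepG2 HIF-1α gave 3.75% and 24.3%, beside 7.74% and 21.3%. HepG2 HIF-2α gave 20.8% and 4.35%, beside 16.1% and 10.7%. Over 24 libraries of the 6 conditions with both antibodies, HIF-2α minus HIF-1α was -2.68 percentage points (exact permutation test within conditions, two-sided p = 0.313, adjusted p = 0.417), -2.92 without HepG2 and -0.85 without RCC4. As labelled, HIF-1α was the higher on average in all 6 conditions, with HIF-2α minus HIF-1α from -11.9 in RCC4 to -0.198 at 3% oxygen for 6 h, and the ranges of the replicates met in all but 0.5% oxygen for 6 h. The rule had removed more sites through HIF-2α, called in WT at 72.3% and 90.1% of α/β sites, than through HIF-1α, at 36.4% and 28.3%. The sign cannot be told apart from that selection. Over all sites, HIF-2α gave 5.68% and 8.12% and HIF-1α 4.19% and 2.67% at 0.5% oxygen for 6 h. At 16 h these were 7.25% and 13.3% against 6.96% and 4.28%, and at 48 h 9.83% and 0.708% against 3.18% and 1.32%. At 3% oxygen they were 2.12% and 4.76% against 1.30% and 0.767%.

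**Figure D5:**
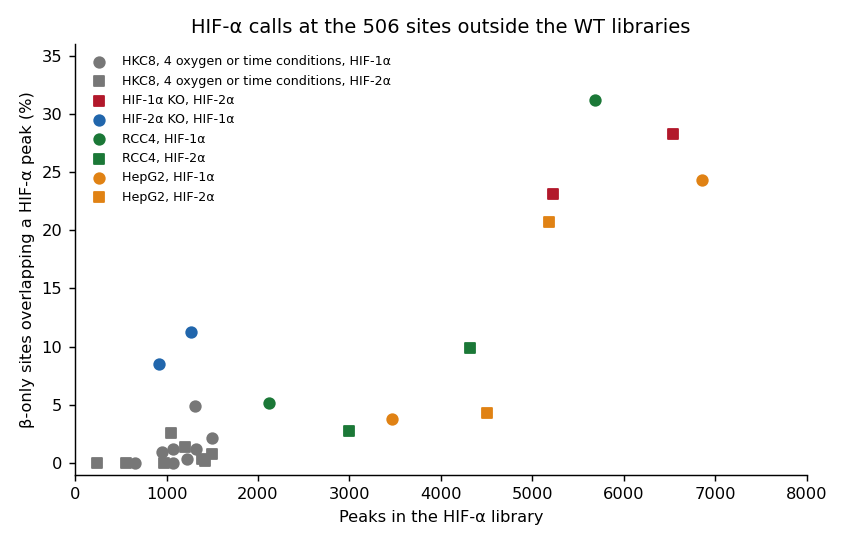
Share of the 506 β-only sites overlapping a HIF-α peak (%) against the number of peaks in the list, for the 28 HIF-α libraries outside the WT set, circles for HIF-1α and squares for HIF-2α. The share runs from 0, in the shortest list among others, to 31.2% in a list of 5680 peaks, where the share of all sites was also 31.2%. It does not follow length throughout: a HIF-1α list of 915 peaks in HIF-2α KO (2aKO) stands at 8.50%.

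A small set had recurrent HIF-1β calls and no HIF-α call anywhere. HIF-1β was called in 4 or more of the 16 other libraries at 9 β-only sites that lacked a HIF-α peak in all 28 (1.78%, beside 0.275% of all sites). Of these, 1 held an HRE core (11.1%), at the ILF2 promoter, and none held ACGTG, an E-box or an AP-1 motif. Of 79 β-only sites called in as many HIF-1β libraries but with a HIF-α call in at least 1, 62 (78.5%) held an HRE core. Of 124 with neither, 52 (41.9%) did. These sets were formed after the calls were seen, and the comparison is a description.

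The strongest member lay at chr5:102763618-102764618, 134.4 kb downstream of the NUDT12 TSS, with WT scores of 749.8 and 965.6. Both 1aKO and both 2aKO libraries called it, as did 6 of the 8 HIF-1β libraries of the separate HKC8 experiment, none of them at 48 h, and no RCC4 or HepG2 library did. A WT HIF-α peak lay 3.33 kb away. Another of the 9 sites, chr5:102779718-102780848, belongs to the same locus and was called in 5 libraries. The second strongest, chr17:70403249-70404429, was 286.7 kb downstream of SOX9, which encodes a transcription factor of progenitor and chondrocyte lineages, with scores of 503.2 and 293.5. HIF-1β was called there in all 12 HKC8 libraries outside the WT set and in no RCC4 or HepG2 library. The IL37 site, chr2:113637992-113639589, near a cytokine gene, was called in all 4 knockout libraries and in 6 of 16 overall. None of these 3 windows held an HRE core.

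Among the other high-scoring members some had HIF-α calls outside WT and some had none. A site 4.63 kb downstream of HES1, a Notch-induced repressor gene (chr3:193858065-193859064), was called in 11 of 16 HIF-1β libraries and by HIF-2α in both 1aKO libraries. The sites at EIF4H (chr7:73588952-73590002) and near SPDYE16 (chr7:76177975-76179546) had HIF-α calls in 6 and 5 of 28 libraries. SPDYE16 belongs to a multigene family, and mapping among its copies was not tested. PSMC4 (chr19:40476282-40477481, TSS at 0.19 kb) had none in HKC8 and 3 elsewhere, and ETAA1, which encodes an activator of replication stress signalling (chr2:67690660-67691725), had 1. NIPSNAP2 had 0. Of the 10 highest-scoring members, 4 held an HRE core and 2 were promoter-proximal.

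The 2 most recurrent members had HIF-α calls in many libraries outside WT. A site in an intron of KDM6B, which encodes a histone H3K27 demethylase, and one at the promoter of BNIP3L, which encodes a mitophagy receptor (chr8:26239938-26240993), were each called in 14 of 16 HIF-1β libraries, both RCC4 and both HepG2 libraries included. HIF-α was called at them in 15 and 19 of 28 libraries. The BNIP3L site had 4 HRE cores, its E-box counting as a core on each strand, low WT scores of 62.0 and 74.4, and a WT HIF-α peak 98 bp away. The STX11 site, with 5 HRE cores counted in the same way, was called in 12 of 16 HIF-1β libraries and by HIF-α in 1 of 28. NFE2L2 and MAFF, which encode NRF2 and a small MAF partner of it, each had a promoter site called in 10 of 16, with HIF-2α in both 1aKO libraries at each. NSG2 and NPEPPS sites were called in 10 and 9. DPY19L2 and SRSF3 were also among the 5 best-ranked promoters, with 8 and 4 HIF-1β calls and HIF-α calls in 6 and 7 of 28 libraries.

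The 5 best-ranked sites with TNGCGTG and no ACGTG were nearest to ETAA1, PILRB, AVP, PRMT6 and CDKL1, with HIF-1β calls in 4, 4, 2, 0 and 4 of the 16 libraries. Both 1aKO replicates called 4 of the 5, the exception being PRMT6, at chr1:107164174-107165145. Over all 40 β-only sites with TNGCGTG, HIF-1β was called at 22.5% and 37.5% in 1aKO, at 47.5% and 32.5% in 2aKO, and at 37.5% and 32.5% in HepG2. At the 191 α/β sites with TNGCGTG the shares were 49.2% and 68.6% in 1aKO, 52.9% and 46.1% in 2aKO, and 26.2% and 23.6% in HepG2. The β-only ranges overlap between the knockouts.

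Genes of the partner pathways were looked up by distance from a TSS. Over 19794 protein-coding genes, 294 (1.49%) had a β-only and 1444 (7.30%) an α/β site within 10 kb. Of 15 AHR-ARNT target genes, 1 had a β-only site within 10 kb of a TSS, NFE2L2 (chr2:178127763-178128769, in the UTR, with WT scores of 63.0 and 179.1 and 1 TNGCGTG in the window), and 4 had an α/β site, UGT1A6, SERPINB2, SLC7A5 and TXNRD1. The nearest β-only site was 589.1 kb from CYP1A1 and 514.0 kb from CYP1B1, the xenobiotic-metabolising enzymes most used as AHR readouts. Of 15 classical HIF targets, 1 had a β-only site, the glucose transporter gene SLC2A1 at 8.41 kb, which also had an α/β site at 1.60 kb, and 11 had an α/β site. Among 11 circadian E-box genes 0 had a β-only site and 1 an α/β site (BHLHE40), and among 14 genes of bHLH-PAS factors 0 had a β-only site and 1 an α/β site (HIF3A).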

How the data were processed

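HIF-1α, HIF-2α and HIF-1β ChIP-seq peak lists were analysed (50 libraries). The authors trimmed adaptors with Trim Galore 0.3.3, aligned reads to GRCh37 (hg19) with BWA 0.7.5a-r405, filtered with SAMtools 0.1.19 and bedtools 2.17.0, marked duplicates with Picard 1.106 and called peaks with MACS against input, one list per library. The deposited score of each peak was taken as the scaled negative logarithm of the MACS p-value. It was used for ranks within a list only, because depth is unknown. The lists precede the second caller and the background filter that the study applied.

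Peaks overlapping by at least 1 bp in both HIF-1β replicates were merged into sites. TSSs came from GENCODE 44 mapped to GRCh37 and sequences from that genome. Motifs were searched on both strands 100 bp to either side of the site centre, the lists giving no summit. The 3 α/β sites off the standard chromosomes were left out of motif and TSS shares. Libraries or conditions were the units of the exact tests, with Benjamini-Hochberg adjustment over 8 tests and 0.05 as threshold. Intervals are 95% Clopper-Pearson, cover counting error only and treat sites as independent. Python 3.11.15, numpy 2.4.6 and SciPy 1.17.1 were used, and the scripts were tested on simulated data. Alternatives covered list cutoffs, overlap, windows, score strata and left-out libraries or conditions.

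Members, gene lists and tests were chosen with earlier results of these data known. Sites were named by rule: the 10 highest mean ranks, the 10 with most HIF-1β calls, the 5 best-ranked with TNGCGTG and no ACGTG, the 5 best-ranked within 1 kb of a TSS, and members within 10 kb of an AHR-ARNT target TSS. Some sites and sequences that these rules pick are not reported here.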

Additional observations from a re-analysis of the deposited data

Results flagged for a closer look

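HepG2 stood apart from the other conditions in the HIF-1β calls at β-only sites. β-only minus α/β was positive in both HepG2 libraries, with a mean of 3.90 percentage points, and negative in both libraries of each of the other 7 conditions. The difference between HepG2 and the other conditions was not tested. Within promoter-proximal sites HepG2 called 62.3% ± 17.4 of β-only and 62.6% ± 4.76 of α/β sites (SD, n = 2), and within distal sites 8.07% ± 1.47 and 11.6% ± 3.19. Promoter-proximal sites made up 24.1% of the β-only and 11.03% of the α/β class.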

How the results depend on the processing

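A missing peak is not absence of signal, depth was not given, and HKC8 conditions share sites. The class size moved with the definition. It was 1698 sites (33.4%) with HIF-α counted only where called in both replicates, 40 (1.47%) in the upper 50% of each HIF-1β list, 66 (2.2% of sites) at a HIF-1β score of at least 100, and 8.90% of sites with the HIF-α peaks of the separate HKC8 experiment added. Leaving out 1 library or replicate gave 537 to 2411 sites (10.6 to 35.5%).

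HIF-1β calls at β-only minus α/β sites, -9.56 percentage points, turned positive in the upper 50% of the lists (2.26, exact permutation test, adjusted p = 0.729), averaged over score groups (11.1) and without the strongest group (5.75). It passed the threshold with the 16 libraries as units (-9.56, exact, adjusted p = 0.00513) and averaged over promoter-proximal and distal sites (-13.2, exact, adjusted p = 0.0312). The first of these settings treats the 2 replicates of a condition as independent units, which they may not be. The knockout difference was 8.59 at distal sites, and -16.4 to 10.7 without 1 replicate. Replicate numbers did not pair the knockout libraries, whose replicate deviations over 5088 sites correlated at 0.0107. With the replicate block that difference was -2.87 (exact p = 1), and HIF-2α minus HIF-1α was -2.68 (exact p = 0.268).

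AP-1 differences of -10.3 (500 bp window), -14.6 (whole site) and -7.71 (upper 50% of lists) had adjusted p = 0.0417 (exact permutation test). The others missed the threshold, down to -5.25 averaged over site classes and -5.38 and -4.32 without 1 replicate. AHR-type differences passed the threshold at 5.77 (500 bp window) and 3.98 (without RCC4), and ran from -0.13 to 0.98 without 1 replicate, where they missed it. E-box differences were 1.97 averaged over promoter-proximal and distal sites, 4.24 in the upper 50% of lists, 0.33 with no HIF-α peak within 1 kb and 1.01 without the knockouts. They were -4.43 without RCC4, which passed, and -5.05 to -2.18 without 1 replicate, of which -5.05 passed. TSS differences were -19.3, which passed, to -12.2 without 1 replicate. The cause of these changes was not tested. HRE differences, -29.3 to -24.7 without 1 replicate, kept their sign and their side of the threshold in all 9 alternatives, as did HIF-2α minus HIF-1α. The sign of HIF-2α minus HIF-1α cannot be told apart from the rule, which removed more sites through HIF-2α. Score groups without the strongest, site-class splits, and fits without RCC4 or the knockouts were added after the data were seen.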
